A study of Mus musculus with 30 samples.

Results

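The genes described here encode proteins of the mitochondrial ribosome. They were chosen by symbol alone (Mrpl or Mrps, a number and at most 1 letter), with no expression value in the rule. The rule found 78 genes of 55154 whose identifiers matched across all 3 deposited count tables, and each table holds all 78. By textbook assignment 51 encode proteins of the large subunit and 26 proteins of the small subunit. Mrps18a and Mrps30 are counted with the large subunit, where their proteins sit in the mammalian particle. The last gene, Mrps36, has a ribosomal name, but its product is a component of the 2-oxoglutarate dehydrogenase complex. Of the 77 others, 44 have a bacterial counterpart and 33 are specific to mitochondria.

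The mitochondrial ribosome makes the few proteins that mitochondrial DNA encodes, all of them core parts of the respiratory chain and of ATP synthase. Its RNAs come from mitochondrial DNA, while every one of its proteins comes from a nuclear gene, is made on cytosolic ribosomes and is imported. Many of its proteins descend from bacterial ribosomal proteins and others were added later, often at the surface of the particle and around the tunnel through which the new chain leaves. In muscle, satellite cells rest with little cytoplasm and few mitochondria. After injury they enlarge, enter the cell cycle and become myoblasts, with more mitochondria and more mitochondrial DNA.

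RNA-seq counts came from 30 libraries of satellite cells, the muscle stem cells, of C57BL/6 mice. Per the labels' protocols mice were perfused with paraformaldehyde, a fixative, before cells were isolated from the hind limbs. Injury was by barium chloride, which destroys muscle fibres. There were 15 groups of 2 libraries: cells 0.5, 1, 2, 4, 8, 16, 32 and 60 h after injury, cells 7, 14 and 28 days after injury, oASC (old cells 2.5 days after injury), oFISC (old cells), oQSC (old uninjured cells) and uninjured cells. For oFISC the labels name injury as treatment but freshly isolated as the time. What was done to these cells, fixation included, is therefore uncertain. No ages are given, and it is not stated whether 2 libraries of a group are 2 animals. The errors and p-values below therefore cover the spread between libraries, which may be technical.

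Library totals ranged from 9.18 to 57.4 M counts, and no gene of the 78 was at 0 in any library. The 8 libraries of 0.5, 1, 2 and 4 h stood apart from their groups. Across the 2000 genes of highest variance, Pearson correlations of log2 levels within these groups were 0.693 to 0.816, and at each of these times 0 of 2 libraries was closest to its own group-mate. Correlations within the groups of 14, 28 and 7 days were no higher, at 0.634, 0.714 and 0.812. Levels are given in CPM, counts scaled to a common library size. The satellite cell transcription factor Pax7 ranged from 69.9 to 987 CPM in these 8 libraries, with 1 high and 1 low library at each time. The low one was replicate 2 at 0.5, 1 and 4 h and replicate 1 at 2 h. Pax7 was at 54.6 and 35.0 CPM at 8 h, against 1781 and 1570 CPM for the uninjured libraries. In each of the groups of 16 h and of 14 days 1 library was also closer to another group. Pax7 was low in the old cells as well, at 73.6 and 61.6 CPM in oQSC, where Myod1, a factor of activated cells, stood at 931 and 1301 CPM, against 42.3 and 51.3 CPM for uninjured ones.

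Promoters are shown for 4 genes that recur in the results below: Mrps18b, called higher at every time to 60 h, Mrps22, the largest rise at 60 h, and Mrpl18 and Mrpl34, the largest rises of the large subunit in oASC. Each sequence runs from 250 bases before to 50 bases after the RefSeq start (GRCm38.p6), and capitals mark the ETS and GABP motif CCGGAAG or the NRF1 motif GCGCATG on either strand. These motifs are known for factors that control many nuclear genes of mitochondria.
Mrps18b, chr17:35916391-35916690, minus strand: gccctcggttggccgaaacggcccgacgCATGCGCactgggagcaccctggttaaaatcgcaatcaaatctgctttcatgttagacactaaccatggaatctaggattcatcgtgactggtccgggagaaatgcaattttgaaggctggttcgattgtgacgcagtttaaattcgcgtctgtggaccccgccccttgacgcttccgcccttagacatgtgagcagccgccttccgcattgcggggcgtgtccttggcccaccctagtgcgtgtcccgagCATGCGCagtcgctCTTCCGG
Mrps22, chr9:98601630-98601929, minus strand: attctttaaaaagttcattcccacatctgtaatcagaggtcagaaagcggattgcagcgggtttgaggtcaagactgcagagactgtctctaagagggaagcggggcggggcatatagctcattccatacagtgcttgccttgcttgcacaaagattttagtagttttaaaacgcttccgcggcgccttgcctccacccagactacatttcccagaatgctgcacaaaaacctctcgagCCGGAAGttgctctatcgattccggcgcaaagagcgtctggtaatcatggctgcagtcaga
Mrpl18, chr17:12916042-12916341, minus strand: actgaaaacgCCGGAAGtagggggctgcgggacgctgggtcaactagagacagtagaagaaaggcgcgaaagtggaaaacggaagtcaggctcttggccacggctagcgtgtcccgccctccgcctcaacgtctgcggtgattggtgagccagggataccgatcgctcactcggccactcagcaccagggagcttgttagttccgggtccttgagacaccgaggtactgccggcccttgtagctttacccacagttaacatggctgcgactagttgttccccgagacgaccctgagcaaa
Mrpl34, chr8:71464676-71464975, plus strand: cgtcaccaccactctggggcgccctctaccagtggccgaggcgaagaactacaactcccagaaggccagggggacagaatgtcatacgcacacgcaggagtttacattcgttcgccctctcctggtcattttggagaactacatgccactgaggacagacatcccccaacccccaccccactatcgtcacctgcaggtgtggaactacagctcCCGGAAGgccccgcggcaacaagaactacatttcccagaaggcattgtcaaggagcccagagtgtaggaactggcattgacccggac

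A promoter was listed for 69 of the 78 genes, and motifs were searched as exact letters on both strands. CCGGAAG was found in the promoters of 26 genes (37.7%), against 9.93% of the 27025 genes in the RefSeq table. GCGCATG was found in 8 genes (11.6%), against 4.41% of all genes. The YY1 motif GATGGCG was found in 8 genes (11.6%), against 4.04%. The E-box CACGTG was found in 5 genes (7.25%), against 8.09%. The median GC content was 58.7% in the promoters of these genes, against 52.7% in all promoters. A match is a description of the letters and not evidence that a factor binds.

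In Mrps18b the NRF1 letters stand near both ends and the ETS letters at the very end, while no motif searched was found in the promoters of Mrpl41, Mrpl50, Mrps6, Mrpl14 or Mrpl23. At 60 h, 19 of 26 genes with CCGGAAG were called, against 32 of 43 without it, with median log2 fold changes of 1.67 and 1.83. This difference was not tested.

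The 78 genes lie on 17 chromosomes and all are annotated as protein coding (GENCODE M21). For 26 of them (33.3%) the start lies within 1000 bases of the start of a protein-coding gene on the other strand, or the starts overlap by up to 500 bases. The same holds for 2090 of 21938 protein-coding genes (9.5%). The starts of Mrps18b and Ppp1r10 are 45 bases apart, and Mrpl46 and Mrps11 are head-to-head neighbours of each other. In 23 of the 78, exon bases are shared with another protein-coding gene, over 10% of the exon bases in 12. The shares include 88.0% for Mrpl53 (with Gm42688), 69.8% for Mrps25 (Nr2c2) and, for Mrps34, 63.4% with Mapk8ip3 and 37.0% with Nme3. They also include 36.0% for Mrpl19 (Gcfc2), 33.4% for Mrpl43 (Twnk), 26.3% for Mrpl24 (Rrnad1) and 19.9% for Mrps6 (Gm49711). With genes of any type, 33 of the 78 share exon bases. Among them are Mrps18b (30.5%, with the antisense gene Gm16279) and Mrps18c (23.2%, with Gm43511). The strand of counting is not given, so reads in such shared bases cannot be told apart. Another 5 annotated pseudogenes are named after these genes, and reads of close copies may be split between them.

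Per kilobase of exon the median level was 26.5 CPM at 60 h, with genes between 6.11 and 252, against 8.65 in uninjured cells, with genes between 1.35 and 46.1. On this scale Mrpl12, which forms the stalk where translation factors bind, Mrpl28, Mrpl2, Mrpl18 and Mrpl20 were highest at 60 h, and Mrpl48, Mrps35 and Mrpl47 lowest. The length used is that of all annotated exons of a gene together, not that of the transcript expressed. It was 8.15 kb for Mrpl48, 8.63 kb for Mrps35 and 4.42 kb for Mrpl47, so the ranking depends on the annotation.

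The summed level of the 78 genes was 6059 and 5922 CPM in the libraries of 60 h, against 1825 and 1832 CPM for the uninjured ones. Earlier sums were 2704 and 2768 CPM 0.5 h after injury, 1914 and 2862 after 1 h, 2763 and 2316 after 2 h and 2128 and 3029 after 4 h. They were 3253 and 3288 CPM after 8 h, 4528 and 4829 after 16 h and 4730 and 3943 after 32 h. Every injured library was above both uninjured ones, and both libraries of 60 h were above all others of the time course. The sum over the large subunit was between 1.99 and 2.42 times the sum over the small subunit in all 30 libraries, with 51 genes against 26. In bulk samples fewer cells of a type and less RNA per cell cannot be told apart.

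**Figure D1:**
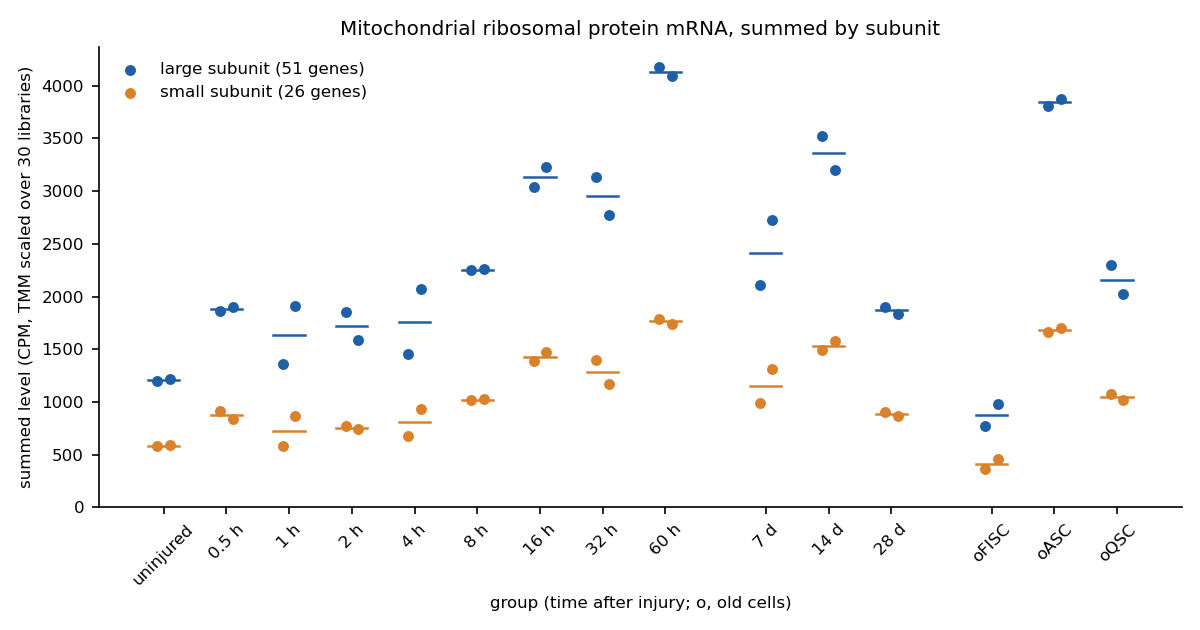
Summed level of the large subunit genes (51, blue) and of the small subunit genes (26, orange) in each library, in CPM scaled over all 30 libraries, by group; each point is 1 library and each short line is the mean of a group. The large subunit sums are highest at 60 h, at 4177 and 4090 CPM, and lowest in oFISC, at 768 and 982 CPM, and in uninjured cells, at 1200.3 and 1217 CPM; the group means of the small subunit have the same highest and 2 lowest groups.

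Over the 9 groups of the time course 48 of the 78 genes changed by edgeR's quasi-likelihood F test (Benjamini-Hochberg adjusted p under 0.05 over 22479 genes), against 24.7% of all genes tested. The smallest p-values were those of Mrpl18 (adjusted p = 0.000266), Mrpl39, Mrpl19, Mrps27, Mrpl34 and Mrpl45. The count was 27 without replicate 1 of 60 h and 29 without replicate 2 of 60 h, where the lone library is assumed to vary like the other groups. The highest mean of the 9 groups was that of 60 h for 53 of the 78 genes, of 16 h for 14, of 8 h for 5, of 32 h for 3, of 0.5 h for 2 and of uninjured cells for 1. For 48 the lowest mean was in uninjured cells.

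At 0.5 h, 7 genes were higher and 0 lower, against 6.88% of all genes called higher and 3.42% lower, and the median log2 fold change over all 78 was 0.55, against 0.24 over all genes tested. Both libraries lay above both uninjured ones for 38 genes, as they did for 30.2% of all genes. The 7 were Mrps18b, Mrps30, Mrpl41, Mrpl3, Mrpl38, Mrps17 and Mrpl4. At 1 h 3 genes were higher and 0 lower (6.57% of all genes higher and 3.64% lower). At 2 h the counts were 5 and 0 (6.32% and 2.99% of all genes), and at 4 h 6 and 0 (7.18% and 3.8%). These comparisons share the uninjured libraries.

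Mrpl41, a large subunit protein specific to mitochondria, was at 51.9 and 33.5 CPM at 0.5 h, against 13.0 and 13.3 in uninjured cells. The libraries did not overlap, and the log2 fold change was 1.70 ± 0.30 (SE; adjusted p = 0.00635). At all later times to 60 h the gene was between 39.1 and 56.9 CPM in every library, so its level after 0.5 h changed little. The call at 0.5 h was lost without either uninjured library.

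Mrps18b encodes one of the 3 mammalian relatives of a bacterial small subunit protein, but by origin it is counted here as specific to mitochondria. Its level was 26.4 and 50.9 CPM after 0.5 h, 19.9 and 56.4 after 1 h, 56.1 and 31.5 after 2 h and 29.1 and 61.5 after 4 h, against 7.50 and 9.20 in uninjured cells. All of these libraries exceeded both uninjured ones, but the spread within a time was wide, and the higher library was in each case the one with less Pax7. At 0.5 h its log2 fold change was 2.21 ± 0.55 (SE; adjusted p = 0.027). The calls at 0.5, 1, 2 and 4 h were lost without the library of that time with less Pax7, namely replicate 2 at 0.5, 1 and 4 h and replicate 1 at 2 h, and without either uninjured library.

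None of the calls at 0.5, 1, 2 and 4 h held without each library in turn. The counts ran from 0, at 0.5 and 2 h without either uninjured library, up to 10, at 4 h without its replicate 1. Mrps6, which encodes a small subunit protein with a bacterial counterpart, showed the split most plainly. Its level was 12.9 and 76.6 CPM after 0.5 h, 10.6 and 59.5 after 1 h, 58.7 and 9.01 after 2 h and 9.96 and 61.2 after 4 h, against 11.2 and 9.90 in uninjured cells. At each time 1 library was near the uninjured level and the other near that of 8 h (74.8 and 75.9 CPM), and no call was made. Whether the mix of cells differed between these libraries was not tested.

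**Figure D2:**
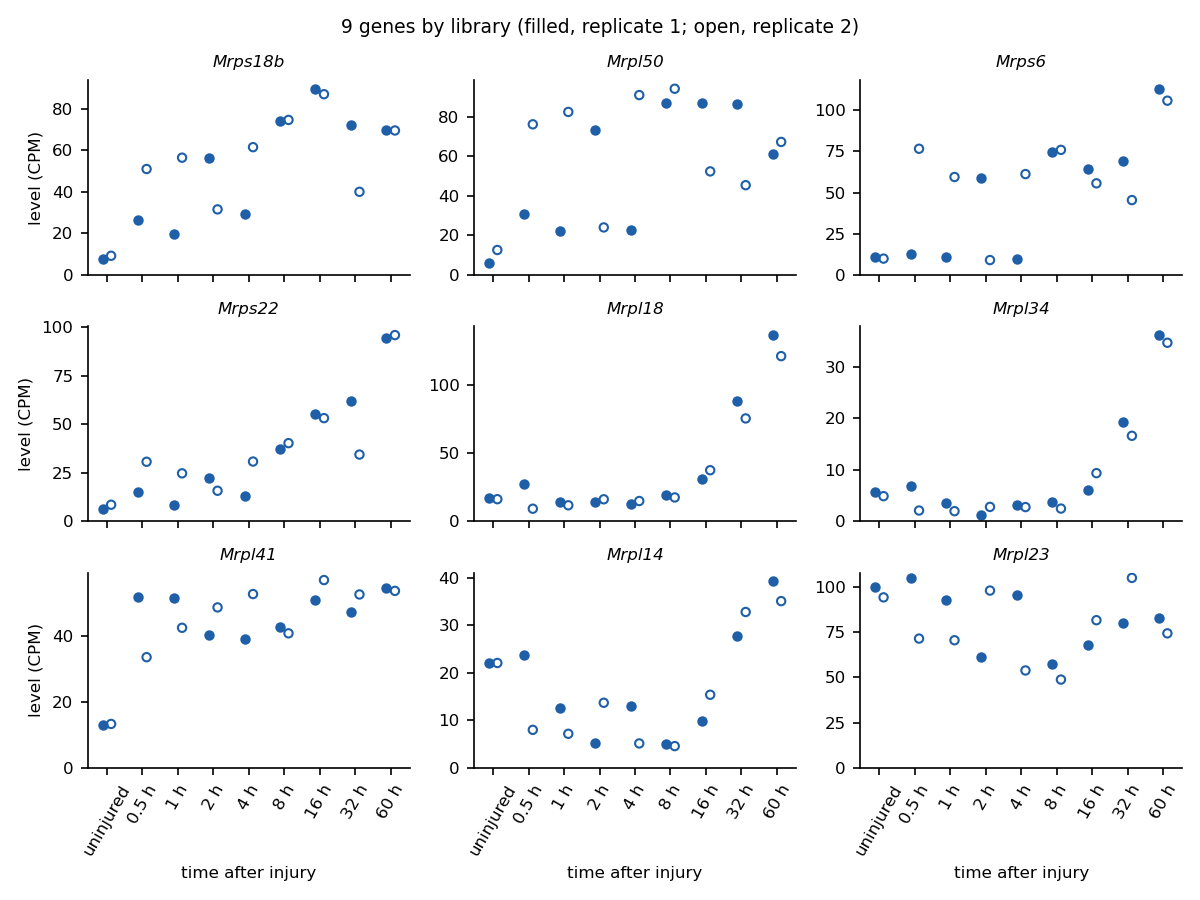
Level of 9 of the 78 genes in each library of the time course, in CPM; each panel is 1 gene and each point 1 library (filled for replicate 1, open for replicate 2), from uninjured cells to 60 h after injury, with its own scale from 0. Mrpl41 is at its higher level from 0.5 h on, Mrps18b, Mrpl50 and Mrps6 split within the times from 0.5 to 4 h, Mrps22, Mrpl18 and Mrpl34 are highest at 60 h, Mrpl14 is lowest at 8 h, and Mrpl23 has no called change.

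At 8 h 23 genes were higher and 1 was lower, against 16.1% of all genes higher and 14% lower, and the median log2 fold change of the 78 was 0.58. Mrpl50, a large subunit protein specific to mitochondria, was at 87.2 and 94.3 CPM at 8 h, against 5.81 and 12.6 in uninjured cells. Its log2 fold change of 3.29 ± 0.85 (SE; adjusted p = 0.0148) was the largest. Mrps18b (log2 fold change 3.15 ± 0.57), Mrps30, Mrpl20 and Mrps7 followed. Each library left out lowered the count, to between 6 (without uninjured replicate 1) and 11 (without replicate 1 of 8 h). Mrpl3, Mrpl38, Mrpl41 and Mrps18b were called at 8 h whichever library was left out.

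Mrpl14, which lies where the subunits meet, was the 1 gene of the 78 called lower at 8 h. It was at 5.02 and 4.55 CPM at 8 h, against 22.0 and 22.1 in uninjured cells (log2 fold change -2.20 ± 0.61; adjusted p = 0.0202). At 60 h it was at 39.3 and 35.1 CPM, above both uninjured libraries, but was not called there. The fall at 8 h was lost on leaving out any 1 of the 4 libraries compared, and Mrpl14 shares exon bases with Tmem63b.

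At 16 h 44 genes were higher and 0 lower (14.2% of all genes higher and 8.5% lower), and at 32 h 41 and 0 (14.1% and 6.44%). The median log2 fold changes were 1.31 and 1.40, against 0.11 and 0.25 over all genes. The largest rises at 16 h were those of Mrps18b (3.40 ± 0.58), Mrpl50 (2.91) and Mrps22 (2.85), and the same 3 genes led at 32 h. Each library left out lowered these counts, to 10 to 21 at 16 h and to 7 to 25 at 32 h, the lowest at both times without uninjured replicate 1.

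**Figure D3:**
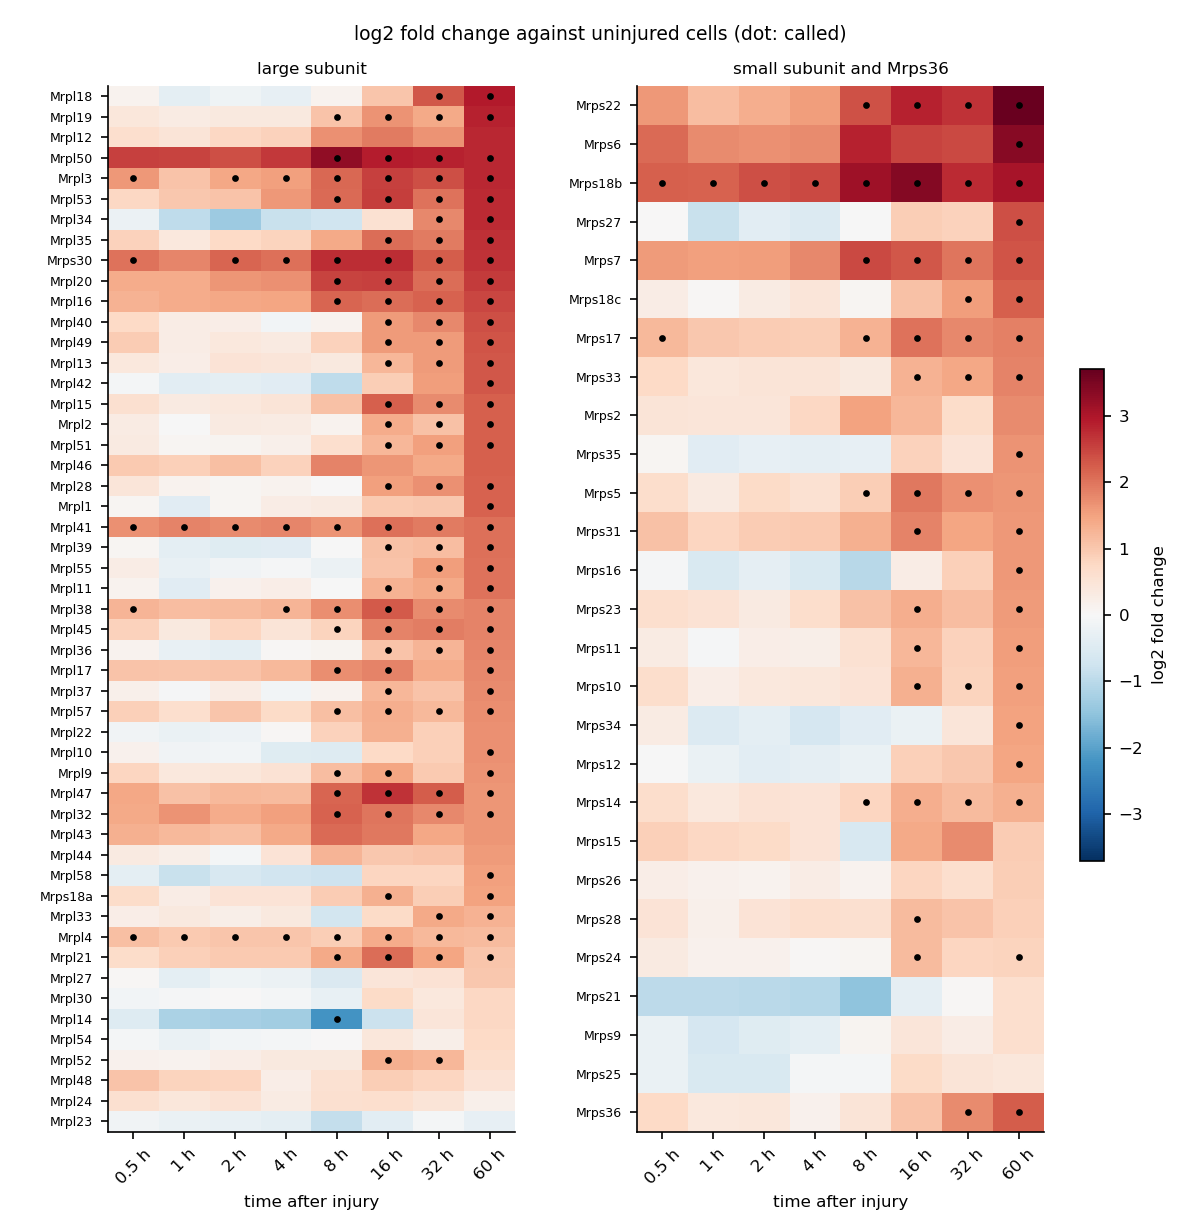
log2 fold change of each of the 78 genes at each time to 60 h after injury against uninjured cells; rows are genes in 2 panels (large subunit; small subunit and Mrps36), ordered by the change at 60 h, columns are times, red is higher and blue lower, and a dot marks a called change. Dots number 7 for 0.5 h, 24 for 8 h, 44 for 16 h, 41 for 32 h and 58 for 60 h, and the fall of Mrpl14 at 8 h is the 1 called fall.

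At 60 h 58 of the 78 genes were higher and 0 lower, against 15.5% of all genes called higher and 12.8% lower. Their median log2 fold change was 1.76, against 0 over all genes tested. Both libraries lay above both uninjured ones for 76 genes, as they did for 37.3% of all genes. By subunit, 38 of 51 large subunit genes (median 1.84) and 19 of 26 small subunit genes (median 1.58) were higher. By origin, 33 of 44 genes with a bacterial counterpart (median 1.69) and 24 of 33 specific to mitochondria (median 1.83) were higher too. Differences between these classes were not tested.

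Mrps22, a small subunit protein specific to mitochondria, rose most. It was at 94.3 and 95.8 CPM at 60 h, against 6.47 and 8.54 in uninjured cells. The log2 fold change was 3.66 ± 0.59 (SE; adjusted p = 0.0010), and the call held without any 1 library. Mrps6 came next with 113 and 106 CPM at 60 h, against 11.2 and 9.90 in uninjured cells. Its log2 fold change of 3.38 ± 1.10 (adjusted p = 0.0375) carried a wide error, and the call was lost on leaving out any 1 of the 4 libraries compared. Mrps18b followed with 69.6 and 69.5 CPM at 60 h, against 7.50 and 9.20 in uninjured cells (3.06 ± 0.57; adjusted p = 0.0024).

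Mrpl18 encodes a large subunit protein of the central protuberance. Its level was 27.7 and 9.25 CPM after 0.5 h, 14.3 and 11.8 after 1 h and 14.0 and 16.2 after 2 h. It was 12.5 and 14.9 CPM after 4 h, 19.4 and 17.5 after 8 h, 30.9 and 37.5 after 16 h, 88.5 and 75.5 after 32 h and 137 and 121 after 60 h, against 17.4 and 16.2 in uninjured cells. The libraries of 0.5 h lay on either side of the uninjured ones, those of 1, 2 and 4 h below both, and all libraries from 8 h on above both. The log2 fold change at 60 h was 2.94 ± 0.43 (SE; adjusted p = 0.0006).

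Mrpl34, one of the smallest proteins of the large subunit, was at 3.81 and 2.48 CPM after 8 h and 36.1 and 34.7 after 60 h, against 5.62 and 4.88 in uninjured cells. The log2 fold change at 60 h was 2.75 ± 0.58 (adjusted p = 0.0045). Mrpl19 was at 116 and 99.3 CPM at 60 h, against 13.4 and 16.1 in uninjured cells (2.86 ± 0.36; adjusted p = 0.0003). Mrpl3, which reaches towards the peptidyl transferase centre, was at 82.6 and 86.9 CPM at 60 h, against 10.8 and 13.7 in uninjured cells (2.79 ± 0.36; adjusted p = 0.0003). The groups did not overlap for any of the 3, and all 3 calls at 60 h held without any 1 library.

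In all, 30 of the 58 genes called at 60 h were called whichever library was left out. The count was 32 without uninjured replicate 1, the lowest of the 4, and 43 without replicate 2 of 60 h, the highest. With the 8 libraries of 0.5 to 4 h out of the fit, 70 genes were called, an alternative chosen after seeing that these libraries stand apart. Of the members of the panel, Mrpl58, a peptidyl-tRNA hydrolase built into the large subunit, lost its call without each of the 4 libraries compared. Mrps12, which helps read the codon, lost it without replicate 1 of 60 h and without uninjured replicate 2, Mrps7 without either uninjured library, and the stalk protein gene Mrpl10 and Mrps18a without uninjured replicate 1.

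The other 20 genes were not called at 60 h. Mrpl12 had the highest levels of all, at 379 and 400 CPM at 60 h, against 68.1 and 44.1 in uninjured cells. Its groups did not overlap, but the log2 fold change of 2.80 ± 1.00 missed the threshold (adjusted p = 0.0532). From 0.5 to 4 h its libraries ranged from 18.8 to 175 CPM, and their spread enters that error as well. Mrpl23, at the mouth of the exit tunnel, was at 82.6 and 74.3 CPM at 60 h, against 99.8 and 94.2 in uninjured cells (log2 fold change -0.31 ± 0.36; adjusted p = 0.547). It was the 1 gene of the 78 whose highest mean of the time course was in uninjured cells. Mrpl24 (0.20), Mrps25 (0.40) and Mrpl48 (0.51) also had small log2 fold changes. Called at no time to 60 h were 17 genes, namely Mrpl12, Mrpl22, Mrpl23, Mrpl24, Mrpl27, Mrpl30, Mrpl43, Mrpl44, Mrpl46, Mrpl48, Mrpl54, Mrps2, Mrps9, Mrps15, Mrps21, Mrps25 and Mrps26.

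Counted by the first time at which a gene was called higher, 7 belonged to 0.5 h, 16 to 8 h, 21 to 16 h, 6 to 32 h and 10 to 60 h. Against 32 h only 2 genes were higher at 60 h and 0 lower, with 1.04% of all genes higher and 2.65% lower. They were Mrpl19 (log2 fold change 1.46 ± 0.34; adjusted p = 0.0363) and Mrps27 (1.51 ± 0.38; adjusted p = 0.048), and both calls were lost on leaving out any 1 of the 4 libraries compared. Mrps27, a small subunit protein with repeats that can bind RNA, was at 115 and 111 CPM at 60 h, against 49.3 and 30.04 CPM at 32 h.

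Other gene lists moved at 60 h as well. Of the proliferation genes 8 of 8 were higher, with sums of 2350 and 2542 CPM at 60 h, against 49.7 and 28.1 in uninjured cells. Of 10 macrophage markers 8 were higher, with sums of 228 and 51.9 CPM at 60 h, against 4.97 and 3.47 in uninjured cells, where 7 of the 10 (Adgre1, C1qa, C1qb, C1qc, Mrc1, Cx3cr1 and Itgam) were at 0. Of 10 pericyte and smooth muscle markers 4 were lower, at 277 CPM in each library of 60 h, against 2029 and 1762 in uninjured cells. Of 16 muscle fibre markers 6 were higher, with sums of 834 and 841 CPM at 60 h, against 397 and 266 in uninjured cells. Of 12 satellite cell markers 2 were higher and 3 lower, of 12 fibro-adipogenic markers 1 and 3, of 12 endothelial markers 1 and 2, and of 5 lymphocyte and 9 neutrophil markers tested 1 and 0 were lower. A list of 8 gene models of ribosomal RNA or known to take up its reads, Lars2 among them, held 17.1% and 16.9% of counts at 60 h, against 26.1% and 19.2% in uninjured cells. The part of these in the rise of the 78 genes was not tested.

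The genes that work with the mitochondrial ribosome were counted from lists. With RLE size factors in place of the TMM scaling none of these lists changed the sign of its median in this comparison. Of the marker lists above, the fibro-adipogenic one did, with a median of 0.04 by TMM and -0.03 by RLE. Of 5 further subunit genes without an Mrp symbol, 4 were higher at 60 h (median log2 fold change 1.39), among them Dap3 (1.42) and Aurkaip1 (1.39), which both encode small subunit proteins. Of 26 assembly factors, 8 were higher and 0 lower (median 1.07). Fastkd2, an RNA-binding protein needed for the large subunit, was at 50.98 and 63.4 CPM at 60 h, against 5.34 and 5.96 in uninjured cells (3.34 ± 0.48; adjusted p = 0.000532). Gtpbp10, a GTPase of large subunit assembly, had a log2 fold change of 2.25.

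Of 15 translation factors 7 were higher and 0 lower (median 1.08). Gfm1, the elongation factor that moves the ribosome along the mRNA, was at 69.3 and 88.5 CPM at 60 h, against 2.34 and 5.58 in uninjured cells (4.30 ± 0.53; adjusted p = 0.000275). Tsfm, which reloads the elongation factor Tu, had a log2 fold change of 3.10. Of 20 aminoacyl-tRNA synthetases and amidotransferase subunits of mitochondria 4 were higher and 1 lower (median 1.08), with Qrsl1 at 2.35. The lower one was Lars2 (-1.72), which is also among the models of ribosomal RNA reads. Of 12 genes for transcription of mitochondrial DNA and for control of nuclear mitochondrial genes 3 were higher and 0 lower (median 1.23), among them Gabpa (2.49), a subunit of the factor that binds the CCGGAAG letters, and Tefm (2.08).

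Of 36 complex I subunit genes, which are nuclear, 21 were higher at 60 h and 0 lower (median 1.26). Of 86 cytosolic ribosomal protein genes 11 were higher and 0 lower (median 0.37). The summed level of the 78 genes was thus 125 and 116 per 1000 CPM of cytosolic ribosomal protein genes at 60 h, against 42.1 and 45.3 in uninjured cells. The 13 mRNAs encoded in mitochondrial DNA went the other way, with 0 higher and 4 lower (median -0.64). Called shares thus ran from 58 of 78 mitochondrial ribosomal protein genes over 21 of 36 complex I genes to 11 of 86 cytosolic ones, beside 15.5% of all genes.

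**Figure D4:**
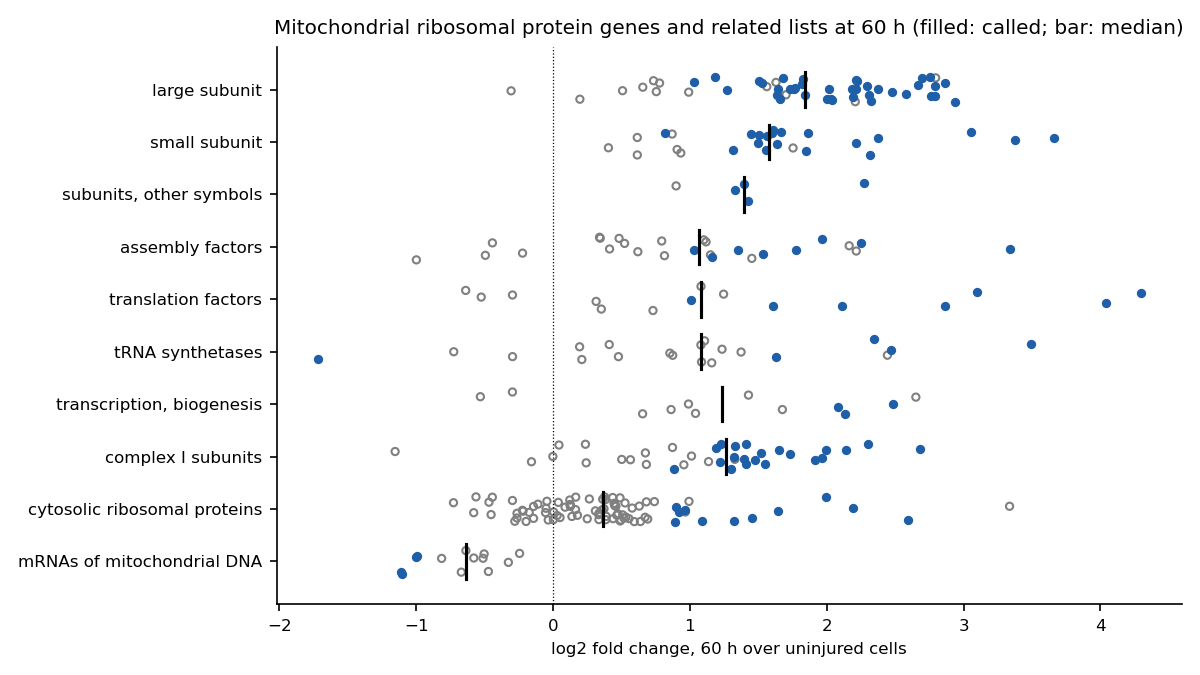
log2 fold changes at 60 h against uninjured cells for the large and small subunit genes and for 8 lists of related genes; each point is 1 gene, filled where called, and the bar in each row is the median. The medians are 1.84 for the large and 1.58 for the small subunit, 1.26 for complex I subunits, 0.37 for cytosolic ribosomal proteins and -0.64 for mRNAs encoded in mitochondrial DNA.

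Head-to-head neighbours gave another view of the same comparison. Of the 26 genes with such a neighbour 21 were called at 60 h, while of 25 neighbours tested 7 were higher and 1 was lower. Over all genes tested 15.5% were higher and 12.8% lower. Mrpl46 and Mrps11 are neighbours of each other, so their pair was counted from both sides. In 5 pairs both were called in the same direction. Mrps18b had a log2 fold change of 3.06 and its neighbour Ppp1r10, 45 bases away, 0.47 (adjusted p = 0.527). Mrpl51 (2.21) and its neighbour Ncapd2 (3.92; adjusted p = 0.000445), a condensin subunit, both rose, while Hira, the neighbour of Mrpl40, fell (log2 fold change -1.42; adjusted p = 0.0323).

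Levels at 7, 14 and 28 days came from another table than the uninjured cells, so table and group cannot be told apart in any comparison between them. Fitted with all 30 libraries, 30 genes were higher at 7 days than in uninjured cells and 0 lower (5.84% of all genes higher and 5.35% lower). At 14 days 51 were higher and 0 lower (6.51% and 6.33%), and at 28 days 6 and 0 (2.29% and 4.2%). The median log2 fold changes were 1.10, 1.47 and 0.72. On the scale set over all tables the sum of the 78 genes was 3119 and 4061 CPM after 7 days, 5036 and 4819 after 14 days and 2813 and 2720 after 28 days, against 1789 and 1815 in uninjured cells. All 6 libraries were above the uninjured ones, and those of 28 days were the lowest of the 6.

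Mrpl45, which holds the ribosome at the inner membrane, was at 81.0 and 79.9 CPM at 7 days, 121 and 52.8 CPM at 14 days and 83.8 and 38.3 CPM at 28 days, against 14.5 and 13.9 in uninjured cells. The log2 fold changes were 2.50 ± 0.39 at 7 days (adjusted p = 0.00029), 2.61 at 14 days and 2.101 ± 0.38 at 28 days (adjusted p = 0.00224). Mrpl41 was at 31.5 and 55.5 CPM at 7 days, 53.7 and 105 CPM at 14 days and 43.3 and 53.0 CPM at 28 days, against 12.8 and 13.2 in uninjured cells. Both genes were above the uninjured level in every library, with the widest gap between libraries at 14 days. At 28 days Mrpl41 was the 1 call that held without any 1 library, and Mrpl45 lost its call without replicate 1 of 28 days.

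The other genes called at 28 days were Mrps18b, Mrpl28, Mrpl24 and Mrpl21. Mrpl53, a large subunit protein specific to mitochondria, had the largest rise at 7 days (log2 fold change 2.56 ± 0.57) and at 14 days (2.62). Mrpl45 and Mrps18c (2.38) followed at 7 days. Of the exon bases of Mrpl53 88.0% are shared with Gm42688 on the same strand, so reads of these 2 genes cannot be told apart there. Each library left out lowered the counts, to 7 to 15 at 7 days and 14 to 32 at 14 days, the lowest without uninjured replicate 2, and to 1 to 4 at 28 days, the lowest without replicate 1 of 28 days. When only the 4 libraries compared were fitted, 0 of the 78 genes and 0 of all genes were called at 14 days. Of 36 complex I genes 29 were higher at 14 days (median 1.70), and of the 13 mRNAs of mitochondrial DNA 6. Of 16 muscle fibre markers 9 were higher at 14 days, with sums of 768 and 727 CPM, against 389 and 263 in uninjured cells, where Myh2, Myh4 and Mb were at 0. Of 8 proliferation genes 5 were higher, with sums of 129 and 191 CPM at 14 days, against 48.7 and 27.9 in uninjured cells. The part of either in the rise of the 78 genes was not tested.

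Within the table of 7, 14 and 28 days no gene of the 78 was called. For 14 against 7 days 0.0531% of all genes were called, and 13 of the 78 had an unadjusted p under 0.05. DESeq2 called 2 of them. For 28 against 7 days 0.295% of all genes were called, 4 of the 78 had an unadjusted p under 0.05 and DESeq2 called 1. The median log2 fold changes of the 78 were 0.33 and -0.40. Mrps18c, a small subunit protein, was at 22.5 and 22.7 CPM at 28 days, against 41.0 and 78.7 CPM at 7 days (log2 fold change -1.40 ± 0.47; adjusted p = 0.248).

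The comparison of oFISC with oQSC gave the largest number of called genes among the comparisons made. In oFISC 72 were lower than in oQSC and 0 higher, against 19.3% of all genes called higher and 22.6% lower, and their median log2 fold change was -1.83, against 0.52 over all genes tested. Over all genes 5803 were higher and 6804 lower. RLE size factors in place of TMM turned this to 7480 higher and 5697 lower, and 66 of the 78 were then lower and 0 higher (median -1.53, against 0.81 over all genes). Both oFISC libraries lay below both oQSC ones for 75 genes, as they did for 31.7% of all genes. The summed level was 722 and 974 CPM in oFISC, against 2952 and 2580 CPM in oQSC. All 4 libraries stand in the same table, but whether the oFISC cells were injured or fixed is uncertain.

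Mrps18c fell most. It was at 1.18 and 1.08 CPM in oFISC (24 and 37 counts), against 16.6 and 13.9 CPM in oQSC, and its log2 fold change was -3.75 ± 0.26 (SE; adjusted p = 9.89e-05). Mrps34, a small subunit protein specific to mitochondria, was at 1.58 and 3.40 CPM in oFISC, against 27.4 and 25.98 CPM in oQSC (-3.39 ± 0.34; adjusted p = 0.000173). Mrpl27 was at 0.690 and 5.71 CPM in oFISC, against 40.0 and 30.2 CPM in oQSC (-3.39 ± 0.67; adjusted p = 0.00519), with the oFISC libraries far apart. The groups did not overlap for any of the 3, and the calls held without any 1 library. All 3 genes share exon bases with other genes, Mrps34 most of all.

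Not called were Mrpl3 (log2 fold change -0.46), Mrpl12 (-0.67; adjusted p = 0.0949), Mrpl43 (-0.16), Mrpl47 (-0.48), Mrps2 (0.07) and Mrps30 (-0.32). Of the 72 calls 61 held whichever library was left out, and the counts ran from 63 without oQSC replicate 2 to 73 without oFISC replicate 2. When the pair was fitted with all 30 libraries, 43 genes were called. By subunit, 46 of 51 large and 25 of 26 small subunit genes were lower, a difference that was not tested.

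Of 36 complex I genes 36 were lower in oFISC (median -2.49), and of 87 cytosolic ribosomal protein genes 46 were lower and 2 higher (median -0.96). The 5 further subunit genes were lower too, as were 11 of 15 translation factors, 13 of 26 assembly factors and 9 of 20 tRNA synthetases. Malsu1, which keeps the subunits apart during assembly, was at 7.00 and 7.35 CPM in oFISC, against 65.3 and 51.4 CPM in oQSC (log2 fold change -3.02 ± 0.22; adjusted p = 9.89e-05). Of the 13 mRNAs of mitochondrial DNA 5 were higher and 1 lower (median 0.34). Muscle fibre markers rose in 6 of 16 and none fell, with sums of 617 and 96.3 CPM in oFISC, against 183 and 210 CPM in oQSC. Satellite cell markers summed to 7541 and 8479 CPM in oFISC, against 25830 and 22142 CPM in oQSC, with 6 of 12 lower and 1 higher. Lower were also 6 of 12 fibro-adipogenic, 5 of 10 macrophage (1 higher), 5 of 10 pericyte and smooth muscle (3 higher), 4 of 9 neutrophil (1 higher), 1 of 6 lymphocyte (1 higher), 3 of 8 proliferation and 2 of 12 endothelial markers. The 8 models of ribosomal RNA reads held 0.689% and 1.70% of counts in oFISC, against 0.337% and 0.442% in oQSC. The part of these in the fall of the 78 genes was not tested.

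In oASC 53 of the 78 genes were higher than in oQSC and 3 were lower, against 19% of all genes higher and 21.3% lower. Their median log2 fold change was 0.98, against -0.33 over all genes. The sums were 4716 and 4777 CPM in oASC, against 2952 and 2580 CPM in oQSC. Of the large subunit genes 39 of 51 were higher and 3 lower, and of the small subunit genes 13 of 26 were higher and 0 lower.

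Mrpl34 was at 31.9 and 33.5 CPM in oASC, against 3.15 and 2.35 CPM in oQSC (log2 fold change 3.57 ± 0.27; adjusted p = 2.68e-05). Mrpl18 was at 80.6 and 74.6 CPM in oASC, against 12.1 and 8.23 CPM in oQSC (2.94 ± 0.26; adjusted p = 5.87e-05). Mrps35, a small subunit protein specific to mitochondria, was at 43.2 and 44.8 CPM in oASC, against 6.04 and 6.64 CPM in oQSC (2.79 ± 0.22; adjusted p = 3.77e-05). The libraries of the 2 groups did not overlap in these 3 genes and lay close together within each group. Mrps5 (2.54) and Mrpl3 (2.48) followed, and all 5 calls held without any 1 library.

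The 3 genes that fell in oASC were all of the large subunit. Mrpl48 was at 38.8 and 38.9 CPM in oASC, against 98.0 and 90.7 CPM in oQSC (log2 fold change -1.28 ± 0.20; adjusted p = 0.00104). Mrpl24 was at 33.7 and 38.8 CPM in oASC, against 78.9 and 66.8 CPM in oQSC (-1.01 ± 0.21; adjusted p = 0.00482). Mrpl23 was at 61.0 and 63.2 CPM in oASC, against 120 and 101 CPM in oQSC (-0.83 ± 0.20; adjusted p = 0.0101). None of the 3 overlapped, but Mrpl24 lost its call without oASC replicate 1, and Mrpl23 lost it without either oASC library and without oQSC replicate 1. The same 3 genes were among the 17 called at no time to 60 h.

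Of the 56 calls 37 held whichever library was left out, and the counts ran from 39 without oASC replicate 1 to 48 without oQSC replicate 1. Fitted with all 30 libraries, 31 genes were called. The comparisons of oFISC and of oASC share the oQSC libraries. Proliferation genes were higher in 8 of 8, with sums of 2604 and 2568 CPM in oASC, against 516 and 477 CPM in oQSC. Of 12 satellite cell markers 8 were lower and 3 higher, with sums of 4774 and 4671 CPM in oASC, against 25830 and 22142 CPM in oQSC. Markers of other cells were mostly lower. Of 12 endothelial markers 8 were lower and 0 higher, with sums of 26.2 and 20.1 CPM in oASC, against 115 and 143 CPM in oQSC. Of 12 fibro-adipogenic markers 7 were lower and 1 higher, with sums of 738 and 747 CPM in oASC, against 1700.5 and 2396 CPM in oQSC. Lower were also 6 of 10 pericyte and smooth muscle, 5 of 9 neutrophil and 2 of 6 lymphocyte markers tested, with 0 higher, while of 10 macrophage markers 3 were higher and 1 lower and of 16 muscle fibre markers 2 and 1. The 8 models of ribosomal RNA reads held 5.79% and 5.72% of counts in oASC, against 0.337% and 0.442% in oQSC. The part of these in the rise was not tested.

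Among related genes, 59 of 87 cytosolic ribosomal protein genes were higher in oASC and 1 lower (median 1.03), and 12 of 36 complex I genes were higher and 5 lower (median 0.31). The mRNAs of mitochondrial DNA were higher in 10 of 13. Of 20 tRNA synthetases 13 were higher, of 15 translation factors 10 higher and 1 lower, and of 26 assembly factors 17 higher and 4 lower. Rpusd4, which modifies the RNA of the large subunit, had a log2 fold change of 2.67 and Gtpbp10 of 2.57.

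**Figure D5:**
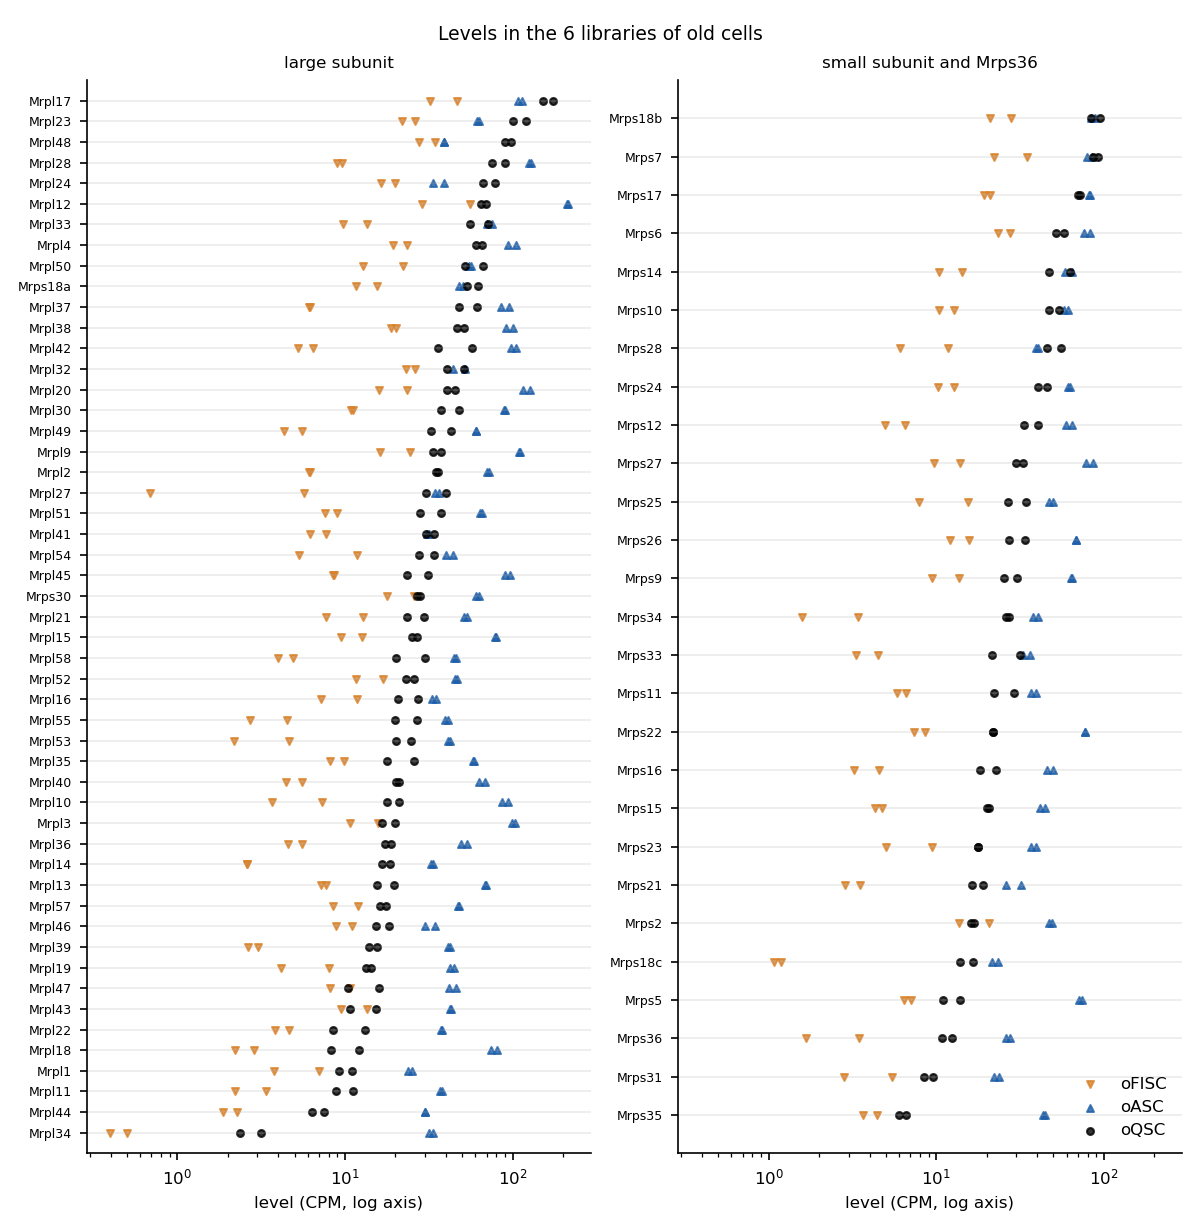
Level of each of the 78 genes in the 6 libraries of old cells, in CPM on a log axis, with genes ordered by their mean in oQSC; down triangles are oFISC, up triangles oASC and circles oQSC, 1 mark per library. For most genes the oFISC marks lie left of the oQSC marks and the oASC marks right of them; Mrps18c is at 1.18 and 1.08 CPM in oFISC, and Mrpl34 at 31.9 and 33.5 CPM in oASC, against 3.15 and 2.35 CPM in oQSC.

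The uninjured old and younger cells came from different tables, and table and group cannot be told apart. In oQSC 26 genes were higher than in uninjured cells and 0 lower (12.3% of all genes higher and 9.31% lower). The median log2 fold change was 0.66, against 0.49 over all genes. Both oQSC libraries lay above both uninjured ones for 54 genes, as they did for 41.3% of all genes. The median of the 78 was thus close to that of all genes. Mrps18b stood out, at 109 and 99.6 CPM in oQSC, against 7.35 and 9.11 in uninjured cells (3.66 ± 0.49; adjusted p = 2.44e-05), and its call held without any 1 library. Mrpl50 (2.92 ± 0.67; adjusted p = 0.00319), Mrps6 (2.63 ± 0.84), Mrpl17 (2.30) and Mrps7 (2.01) followed. The count was 8 without uninjured replicate 1, 13 without uninjured replicate 2, 11 without oQSC replicate 1 and 18 without oQSC replicate 2. Of 87 cytosolic ribosomal protein genes 2 were higher and 38 lower (median -0.84), and of 36 complex I genes 15 were higher and 0 lower. The 8 models of ribosomal RNA reads held 0.337% and 0.442% of counts in oQSC, against 26.1% and 19.2% in uninjured cells, and without them the comparison called 26 genes. Macrophage markers were higher in 5 of 10, with sums of 80.2 and 67.5 CPM in oQSC, against 4.87 and 3.44 in uninjured cells. Muscle fibre markers were higher in 7 of 16 and lower in 2, with sums of 209.9 and 248 CPM in oQSC, against 389 and 263 in uninjured cells. Fibro-adipogenic markers were higher in 5 of 12 and lower in 1 (1953 and 2828 CPM in oQSC, against 1433 and 1409), and endothelial ones higher in 4 of 12 and lower in 0 (132 and 168 CPM in oQSC, against 38.1 and 76.2). Proliferation genes were higher in 4 of 8 (592 and 563 CPM in oQSC, against 48.7 and 27.9). Satellite cell markers were higher in 4 of 12 and lower in 2, pericyte and smooth muscle markers higher in 2 of 10 and lower in 1, and 1 of 9 neutrophil and 0 of 6 lymphocyte markers were called. The part of these in the difference was not tested.

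oASC and the younger cells of 60 h were alike in time after injury. No gene of the 78 was called between them by edgeR, and 2.2% of all genes were, with a median log2 fold change of -0.11 over the 78. An unadjusted p under 0.05 was found for 4, DESeq2 called 2, and with only the 4 libraries in the fit 9 were higher and 31 lower. The shares of all genes called under these 2 settings are not given, so the counts may not be particular to the 78. A count of 0 with 2 libraries a group does not show that levels were equal. Over the 15 groups, with levels set on 1 scale across tables, 26 genes were highest at 60 h, 22 at 14 days and 17 in oASC, while 54 were lowest in oFISC and 18 in uninjured cells. The change from oQSC to oASC was lower than the change from uninjured cells to 60 h for 7 of the 78 genes and higher for 0 by the test of that difference, with 3.99% of all genes lower and 3.29% higher. Mrps18b had the largest such difference (log2 -3.11 ± 0.64; adjusted p = 0.0051). It was at 104 and 98.5 CPM in oASC and 69.0 and 68.9 CPM at 60 h, against 109 and 99.6 CPM in oQSC and 7.35 and 9.11 in uninjured cells, so the uninjured younger cells were the group apart. The call was lost without uninjured replicate 1 (adjusted p = 0.0565).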

How the data were processed

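The authors deposited counts per gene, whole numbers, in 3 tables (18 libraries to 60 h, 6 at 7 to 28 days, 6 of old cells). Per the submitters' processing notes, HISAT2 2.1.0, StringTie 1.3.3, SAMtools 1.3 and Trimmomatic 0.36 were used, and the build was mm10. Which program counted reads, on which strand and with which annotation, is not given in the sources used here. Per the labels' protocols RNA came from fixed cells and was polyadenylated. Molecular identifiers are not mentioned, and amplified copies thus enter the counts.

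The fits used edgeR 4.0.16 (R 4.3.3, limma 3.58.1, data.table version 1.17.8): filterByExpr (minimum count 10, minimum total 15), TMM scaling, quasi-likelihood F test and Benjamini-Hochberg adjustment over all genes tested, called under 0.05. All 78 genes passed the filter in each of the 4 fits (22479 genes for the time course, 16954 for 7 to 28 days, 30099 for old cells, 28823 for all 30 libraries). Comparisons between tables used the last fit. Levels are TMM-scaled CPM within a table, and over all tables where tables are compared. The error of a fold change is its size over the square root of F. The spread of a gene is estimated over all groups of a fit, so errors and p-values also hold the spread within groups not compared. Data were simulated for 60 h against uninjured cells, with 50 genes at each fold change. The share called was 0% at 2-fold, 8% at 4-fold, 42% at 8-fold and 70% at 16-fold. Most genes were simulated without a change, and 62 were called in all, against 3476 higher and 2878 lower in the real comparison. With so few calls the adjustment was stricter in the simulation, so these shares do not carry over to the real comparison. Absence of a call with 2 libraries a group does not show that levels were equal.

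The genes and the lists were chosen with earlier results of these data known. Genes named are the 3 largest called rises and falls without overlap per comparison, the 6 smallest p over the time course, a panel of 15, and up to 2 genes per list (1 such gene is not reported here). Others were named after their values were seen: those in the counts of genes called, not called or highest per kilobase, and Mrps18c at 28 days. Other settings tried were DESeq2 1.42.0, RLE size factors, unfiltered counts, a block for the replicate number, other sets of libraries, omission of ribosomal RNA gene models, and each library left out in turn.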

Additional observations from a re-analysis of the deposited data

Results flagged for a closer look

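The change from oQSC to oASC and the change from uninjured cells to 60 h differed for 7 of the 78 genes by the test of that difference (edgeR quasi-likelihood, adjusted over 28823 genes). In all 7 the change was lower in the old cells. As log2 fold change within the old cells it was -0.56 for Mrpl17, -0.24 for Mrps18a, -0.11 for Mrps7, -0.05 for Mrps18b and -0.04 for Mrpl41. It was 0.21 for Mrps17 and 0.23 for Mrps10, and none of the 7 was called there. As given above, oQSC had less Pax7 and more Myod1 than uninjured cells, and more Mrps18b, Mrpl17 and Mrps7. The part of this in the differences was not tested. The differences on the log2 scale were -3.11 ± 0.64 for Mrps18b (SE; adjusted p = 0.0051), -2.43 ± 0.65 for Mrps7 (0.0268), -2.33 ± 0.67 for Mrpl17 (0.0387) and -2.07 ± 0.49 for Mrpl41 (0.0135). They were -1.74 ± 0.46 for Mrps18a (0.0247), -1.65 ± 0.47 for Mrps17 (0.0363) and -1.27 ± 0.38 for Mrps10 (0.0476). Old and younger cells stand in different tables, so table and age group cannot be told apart. Each of the 7 calls was lost on leaving out at least 1 of the 8 libraries.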

How the results depend on the processing

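Over 4577 values of called genes under the alternatives, 0 changed sign. These genes were already called in the main fit on mostly the same libraries, so a change of sign was unlikely from the start. RLE size factors lowered the median of the 78 genes at 16 and 32 h to 1.06 and 1.15 and left 33 and 31 calls there. DESeq2 called 12, 11, 9 and 12 genes at 0.5, 1, 2 and 4 h, the fit with all 30 libraries 9, 8 and 11 at 1, 2 and 4 h, and the fit without a filter 5 at 1 h. For 60 against 32 h DESeq2 called 8 genes and the fit without a filter 0. Without the libraries of 0.5 to 4 h, an alternative chosen after seeing the data, 41, 61, 61 and 70 genes were called at 8, 16, 32 and 60 h and 13 for 60 against 32 h.

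DESeq2 called 2 genes for 14 against 7 days, 1 for 28 against 7 days, 22 for 28 days against uninjured cells, 2 for oASC against 60 h and 21 for the difference between responses. All 30 libraries in the fit gave 2 and 1 for 14 and 28 against 7 days, 43 for oFISC and 31 for oASC against oQSC. Without a filter 17 were called at 7 days and 15 for oQSC against uninjured cells. Only the groups compared in the fit gave 0 at 14 days, 40 for oASC against 60 h and 44 for the difference between responses. The causes were not tested.

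Leaving out 1 library gave 27 to 53 calls for any change to 60 h, 0 to 5 at 0.5 h, 0 to 6 at 1 h, 0 to 5 at 2 h, 0 to 10 at 4 h, 6 to 11 at 8 h, 10 to 21 at 16 h, 7 to 25 at 32 h and 32 to 43 at 60 h. It gave 0 to 0 for 60 against 32 h, for 14 and 28 against 7 days and for oASC against 60 h. It gave 7 to 15 at 7 days, 14 to 32 at 14 days, 1 to 4 at 28 days, 63 to 73 for oFISC, 39 to 48 for oASC, 8 to 18 for oQSC and 1 to 2 for the difference between responses. A lone library is assumed to vary like the other groups.

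Replicate numbers showed no pairing of libraries across most groups: of 105 pairs of groups 12 had a correlation of same-numbered deviations over 0.1 (range -0.68 to 0.63). This count cannot exclude pairing between some of the groups. With the replicate block 4 genes were called at 0.5 h, 1 for 60 against 32 h and 56 at 60 h.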
